A study of Mus musculus with 3 samples.

Results

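Elastic fibres are built by a small set of secreted proteins, and 10 of their genes were followed through the cell classes of young mouse discs: the 5 lysyl oxidases Lox, Loxl1, Loxl2, Loxl3 and Loxl4, the elastin gene Eln, the fibulin gene Fbln5, and the microfibril genes Fbn1, Mfap4 and Mfap5. The members were picked by symbol from the 30406 genes listed in all 3 libraries, with earlier results of the same libraries known. Single-cell RNA sequencing had been run on intervertebral discs of untreated mice at postnatal day 30, pooled over lumbar, thoracic and caudal levels. All mice were shh-cre:R26R-tdTomato, so tdTomato marks cells in which Cre, expressed where Shh is, was active then or in an ancestor, and a sort had enriched the cells for tdTomato. There was 1 group of 3 libraries, each a pool of litter-matched animals, with no control group, so every comparison below is between cell classes within these libraries.

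Lysyl oxidases are copper enzymes that oxidize lysines of collagen and elastin, the step from which the covalent cross-links of both form. Elastin is laid down on microfibrils, whose backbone is fibrillin 1, the product of Fbn1. Fibulin 5 binds elastin and lysyl oxidase-like 1 during assembly, and the products of Mfap4 and Mfap5 bind to microfibrils. In the disc, elastic fibres run through the annulus fibrosus, the fibrous ring around the gelatinous nucleus pulposus.

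The libraries held 64695292, 145925353 and 137188648 unique molecular identifiers (UMIs, counts of single captured transcripts), and 5732, 10786 and 10364 barcodes were kept. Libraries 1 and 2 shared 24 barcode sequences, libraries 1 and 3 shared 29, and libraries 2 and 3 shared 224. Leaving all of these out ended 1 call among the members, given with the osteoblasts below. Cells were classed by fixed markers, none of them a member of the set. A nucleus pulposus-like cell had at least 3 of Krt8, Krt18, Krt19 and T, and a cell of any other class named here had at least 4 of 8 markers. There were 544, 157 and 26 nucleus pulposus-like cells in libraries 1, 2 and 3, and 948, 323 and 55 chondrocyte-like cells. The fibroblasts of annulus or tendon type (called annulus-like) came to 21, 20 and 19. Osteoblast-like cells came to 39, 210 and 638, those like marrow stroma (stromal-like) to 14, 30 and 60, and those like loose fibroblasts to 38, 20 and 54. Some classes overlapped, since 8 of 21, 11 of 20 and 1 of 19 annulus-like cells also passed the chondrocyte gate, and 1 of 14, 10 of 30 and 18 of 60 stromal-like cells passed the osteoblast gate. Of the nucleus pulposus-like cells, 49, 16 and 1 also passed the chondrocyte gate. Library 3 stood apart in having few nucleus pulposus-like cells, with a median of 2097 UMIs, against 3059 in library 1 and 9243 in library 2. Levels are given as CPM, the gene's UMIs per 1000000 UMIs summed over the class's cells in a library. A sum of fewer than 20 cells entered no mean or test, which left out the annulus-like cells of library 3 and the stromal-like cells of library 1. Median mitochondrial UMIs in nucleus pulposus-like cells were 0.0727%, 2.74% and 0.0897%, against 2.87% or more in the chondrocyte-like cells of each library. Because the kit reads transcript 3' ends, each gene is compared across classes, and levels of different genes are not ranked against each other.

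Promoter sequence from RefSeq (GRCm38.p6, the mm10 assembly) was at hand for 3 of the 10 members, Fbn1, Fbln5 and Loxl4. They are shown because their patterns differ below: Fbn1 and Fbln5 were high in loose fibroblast-like cells, where Loxl4 had 1 UMI in all, and Loxl4 was higher in chondrocyte-like and osteoblast-like cells, where Fbln5 was low. Each line gives the 250 bases before the start annotated by RefSeq, on the minus strand, which is the gene's own. RefSeq and GENCODE starts can differ, and the Fbn1 window lies inside the GENCODE span of the gene given below. Capitals mark a match on either strand to TATAAA, the GC box GGGCGG, the CCAAT box CCAAT or the AP-1 motif TGANTCA.
Fbn1, chr2:125506439-125506688: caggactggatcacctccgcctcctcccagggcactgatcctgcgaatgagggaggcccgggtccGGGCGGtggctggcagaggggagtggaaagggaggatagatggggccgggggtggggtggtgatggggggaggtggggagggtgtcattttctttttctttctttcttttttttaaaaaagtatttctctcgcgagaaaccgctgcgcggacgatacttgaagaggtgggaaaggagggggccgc
Fbln5, upstream of its 2 annotated starts, chr12:101819120-101819369: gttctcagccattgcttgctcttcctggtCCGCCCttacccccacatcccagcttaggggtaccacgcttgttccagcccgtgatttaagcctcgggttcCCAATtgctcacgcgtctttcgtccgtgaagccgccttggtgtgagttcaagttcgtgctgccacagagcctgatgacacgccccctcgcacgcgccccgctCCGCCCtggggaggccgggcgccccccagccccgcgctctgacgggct
Loxl4, chr19:42612807-42613056: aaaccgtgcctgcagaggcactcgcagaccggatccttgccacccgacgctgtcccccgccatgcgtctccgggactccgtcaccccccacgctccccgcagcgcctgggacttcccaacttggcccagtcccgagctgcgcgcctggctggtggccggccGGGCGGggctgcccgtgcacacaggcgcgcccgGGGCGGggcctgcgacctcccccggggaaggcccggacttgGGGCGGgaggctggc
GC boxes were found 1 time before Fbn1, 2 times before this start of Fbln5 and 3 times before Loxl4, and the same Fbln5 window held 1 CCAAT box. Neither the TATA nor the AP-1 letters occurred in any of the 3 windows. Of 32851 promoter windows of this length, 32.7% held a GC box, 33.8% a CCAAT box, 12.4% the TATA letters and 6.75% the AP-1 letters, so GC boxes stood before genes of both patterns and are common elsewhere.

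The classes used different lysyl oxidases. Lox, the founding enzyme of the family, was highest on average in osteoblast-like cells, with 345, 607 and 591 CPM in libraries 1, 2 and 3 (514 ± 147, SD, n = 3), and 82.1%, 95.2% and 96.2% of those cells had a Lox UMI. Loose fibroblast-like cells had 589, 432 and 191 CPM of Lox (404 ± 201, SD, n = 3), annulus-like cells 238 and 324 CPM, and stromal-like cells 173 and 253 CPM. These neighbouring classes overlapped the osteoblast-like range or each other, while chondrocyte-like cells, at 43.9, 48.6 and 58.1 CPM, lay below all of them in every library. B lineage-like cells, which serve as a stand-in for the background of free RNA, averaged 3.47 CPM of Lox and had a UMI in at most 1.21% of cells. Their median depths were 2954, 4280 and 3074 UMIs, against 9056, 19454 and 18633 UMIs in osteoblast-like cells. In library 3 their 223 Lox UMIs were in 43 of 3568 cells. Scrublet, which looks for doublets, called 25, 231 and 210 of the B lineage-like cells, and these were kept. Whether doublets raise this background was not tested.

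Loxl1, the family member tied to elastin by mouse genetics, had its highest levels in loose fibroblast-like cells (262, 202 and 443 CPM) and stromal-like cells (197 and 360 CPM). The ranges of these classes overlapped, and the 14 stromal-like cells of library 1 had 419 CPM. No other class with at least 20 cells exceeded 78.4 CPM in any library, the osteoblast-like value of library 1, and the annulus-like cells of library 3, with fewer cells, had 175 CPM. Nucleus pulposus-like cells had 12, 1 and 0 Loxl1 UMIs in all.

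Loxl2, a family member with scavenger receptor domains, went the other way. Annulus-like cells had 877 and 622 CPM and chondrocyte-like cells 392, 256 and 300 CPM, so that the groups did not overlap; the 19 annulus-like cells of library 3 had 260 CPM, within the chondrocyte-like range. Loose fibroblast-like cells had 164, 176 and 159 CPM, and nucleus pulposus-like cells 126, 166 and 41.9 CPM. Osteoblast-like cells, with 20.2, 8.26 and 7.23 CPM, were close to the B lineage-like background of 16.9, 7.92 and 7.34 CPM, although Lox was at its peak there. Loxl3, which shares the scavenger receptor domains, also had its highest levels in annulus-like cells (215 and 202 CPM) and chondrocyte-like cells (177, 97.3 and 114 CPM). It lay between 20.9 and 79.6 CPM in all other connective or nucleus pulposus-like sums of at least 20 cells. The 19 annulus-like cells of library 3 held 14 Loxl3 UMIs among 211593, a lower CPM than in any chondrocyte-like sum. Loxl4, another member of the scavenger receptor branch, reached 36.1, 23.6 and 33.7 CPM in chondrocyte-like and 24.6, 28.8 and 29.6 CPM in osteoblast-like cells, which overlap. Stromal-like cells had 10.4 and 7.96 CPM of it, and all 112 loose fibroblast-like cells together had 1 UMI.

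**Figure D1:**
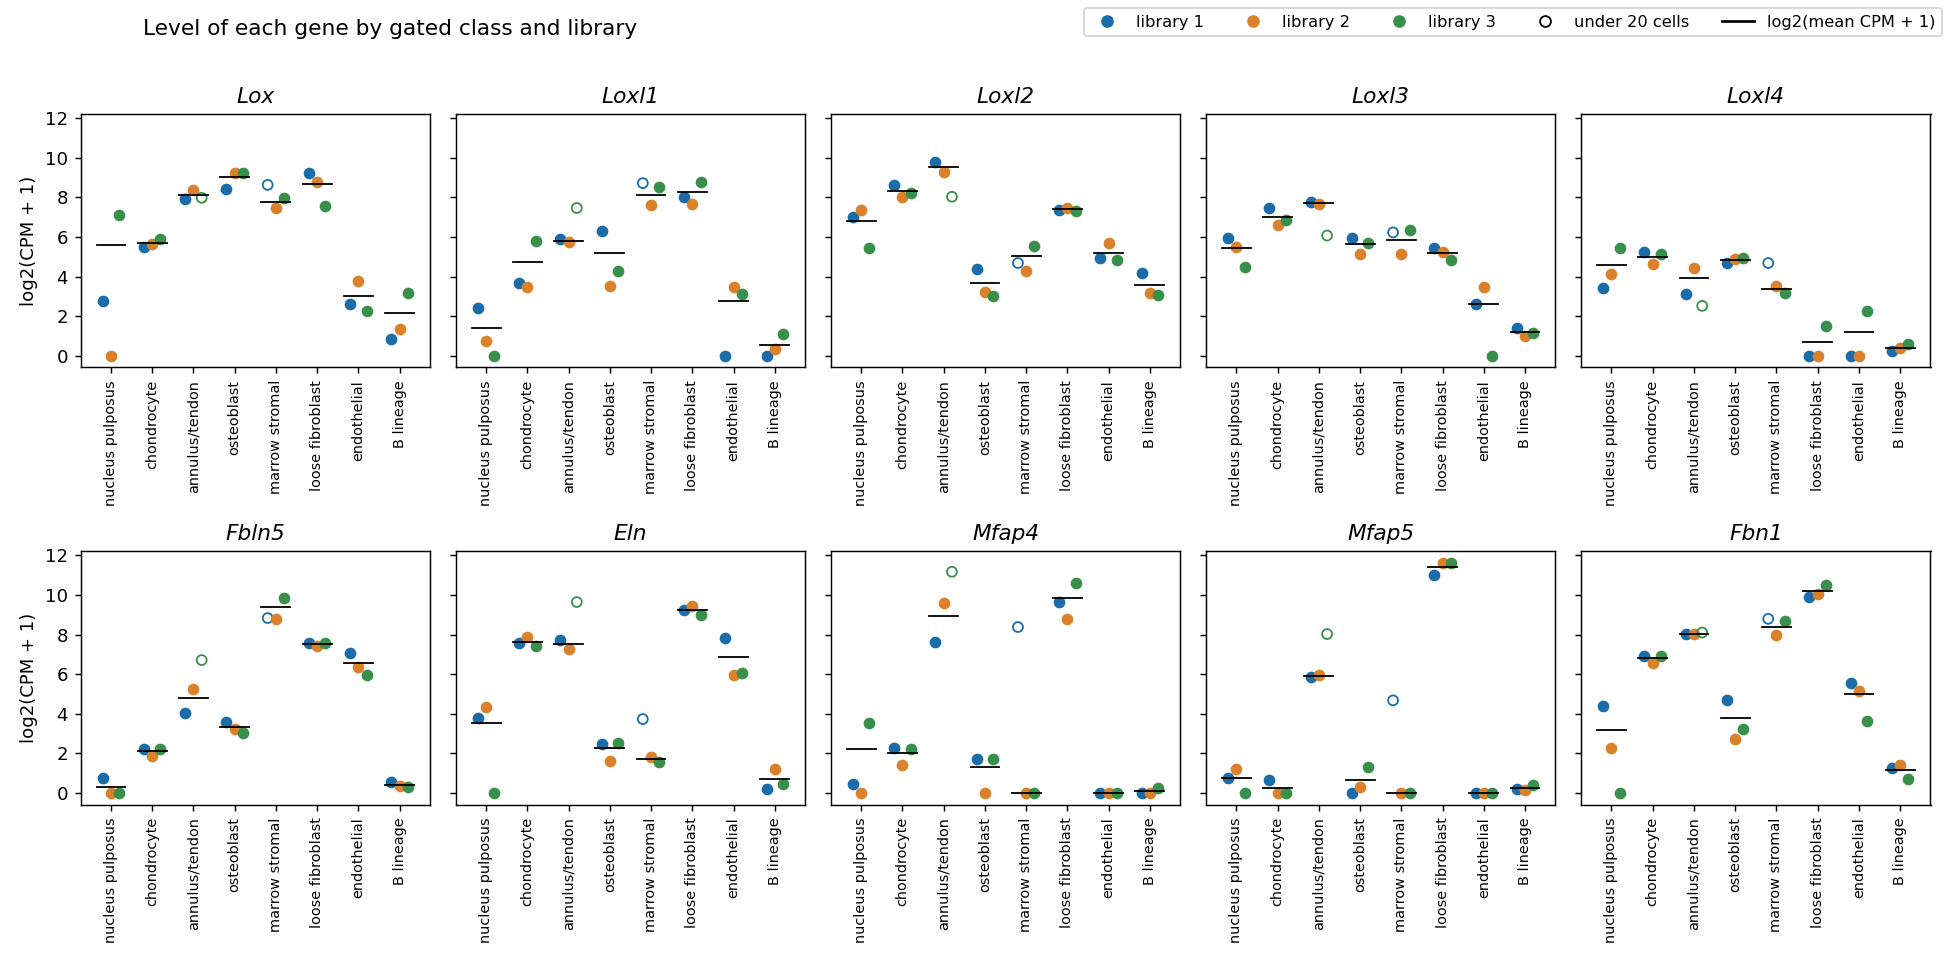
Level of each of the 10 genes as log2(CPM + 1), with nucleus pulposus-like cells at the left of each panel, then the 5 connective tissue classes, endothelial-like cells and B lineage-like cells; each point is 1 library, open points are sums of fewer than 20 cells, and the line is the log2 of the mean CPM + 1. Loxl2 peaks in annulus-like cells and is close to its B lineage-like level in osteoblast-like cells, where Lox is high. Mfap5 stands at 2040 to 3175 CPM in loose fibroblast-like cells and near 0 in most other classes.

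As a share of the family's UMIs within a class, Lox made up 79.4% ± 12.4 in osteoblast-like cells (SD, n = 3). Loxl2 made up 57.2% ± 3.20 in chondrocyte-like cells (SD, n = 3) and 56.9% ± 8.46 in annulus-like cells (SD, n = 2), with Loxl3 next in chondrocyte-like cells at 23.2% ± 3.26. Stromal-like cells divided their lysyl oxidase UMIs mainly between Loxl1, 46.9% ± 1.95, and Lox, 37.0% ± 4.42 (SD, n = 2). In loose fibroblast-like cells Lox held 43.3% ± 17.6 and Loxl1 34.2% ± 17.0, and which of them led differed by library, since Loxl1 held 53.8% in the library where it was highest. The kit's 3' capture may differ between genes, so these shares describe UMIs, not protein.

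**Figure D2:**
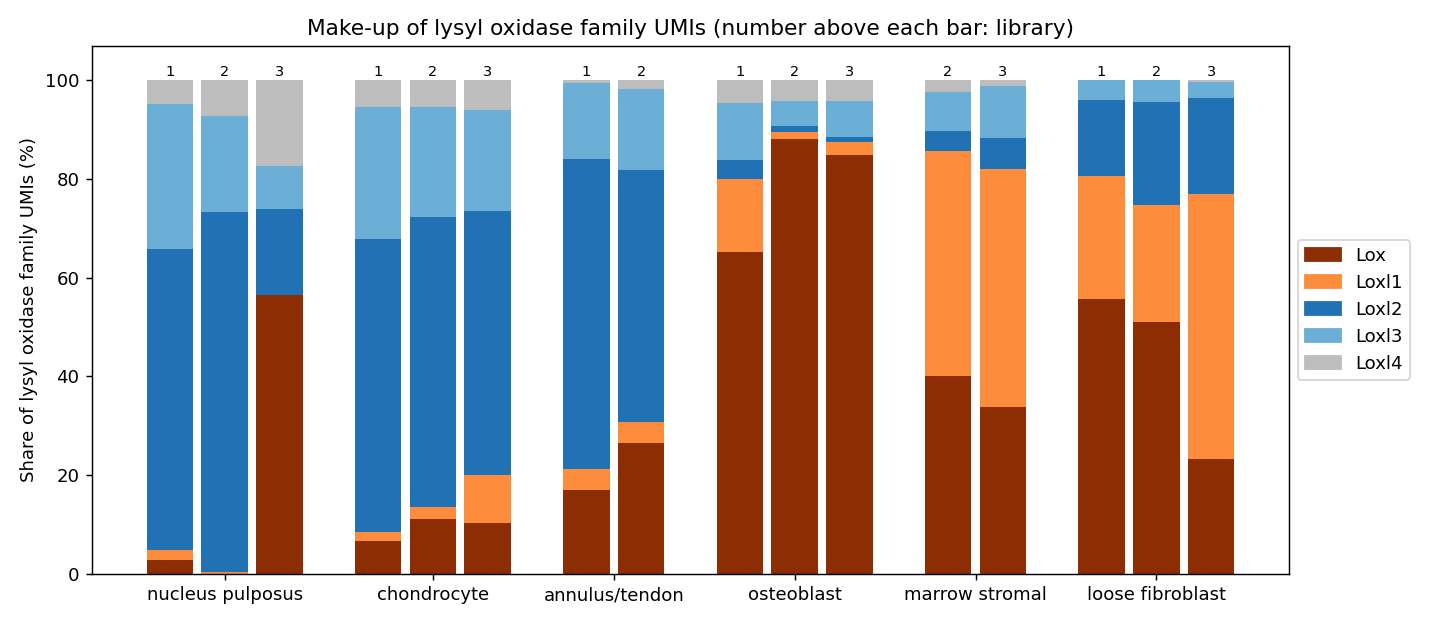
Share of lysyl oxidase family UMIs, in percent, taken by each of the 5 genes, with 1 bar per library for sums of at least 20 cells. Lox fills most of each osteoblast-like bar (65.3% to 88.1%), Loxl2 most of each chondrocyte-like bar (53.5% to 59.3%), and the nucleus pulposus-like bar of library 3, with 23 UMIs in all, differs from the other nucleus pulposus-like bars.

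Of the elastic fibre genes proper, Eln was highest in loose fibroblast-like cells, at 603, 687 and 511 CPM (601 ± 88.1, SD, n = 3). Chondrocyte-like cells had 188, 233 and 172 CPM and annulus-like cells 215 and 153 CPM, ranges that overlap each other and lie below the loose fibroblast-like one. The annulus-like cells of library 3 reached 799 CPM, with 94.1% of their Eln UMIs in 2 cells. Osteoblast-like cells, at 4.48, 2.12 and 4.74 CPM, and stromal-like cells, at 2.59 and 1.99 CPM, were near the B lineage-like mean of 0.636 CPM. Osteoblast-like cells thus held much Lox, and stromal-like cells much Fbln5, beside little Eln, while loose fibroblast-like cells held all 3.

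Fbln5 was highest in stromal-like cells, at 437 and 916 CPM in libraries 2 and 3, and the 14 stromal-like cells of library 1 had 456 CPM. Loose fibroblast-like cells followed with 188, 170 and 187 CPM, without overlap. Annulus-like cells had 15.3 and 37.6 CPM, and osteoblast-like and chondrocyte-like cells had means of 8.97 and 3.34 CPM.

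Fbn1 was found in every connective class: 938, 1076 and 1456 CPM in loose fibroblast-like cells, 248 and 408 CPM in stromal-like cells, 261 and 260 CPM in annulus-like cells, and 120, 92.1 and 118 CPM in chondrocyte-like cells. The loose fibroblast-like range lay above all others, the stromal-like and annulus-like ranges overlapped, and osteoblast-like cells were lowest with 24.6, 5.66 and 8.27 CPM. Mfap5 differed most between classes: loose fibroblast-like cells had 2040, 3175 and 3102 CPM, annulus-like cells 57.5 and 60.7 CPM, and chondrocyte-like, osteoblast-like and nucleus pulposus-like cells at most 1.45 CPM. Mfap4 had 792, 448 and 1546 CPM in loose fibroblast-like cells and 199 and 763 CPM in annulus-like cells, which overlapped. The 19 annulus-like cells of library 3, which entered no mean or test, held 488 Mfap4 UMIs and 55 Mfap5 UMIs among 211593. For both genes that is a higher CPM than in the other annulus-like sums, and for Mfap4 also than in every loose fibroblast-like sum. Mfap4 was at most 3.81 CPM in any chondrocyte-like or osteoblast-like sum, and nucleus pulposus-like cells had 1, 0 and 1 Mfap4 UMIs. Both genes had 0 UMIs in the stromal-like cells of libraries 2 and 3. Against a floor of 3 UMIs over those sums together, mean Mfap5 was at least 821-fold higher and mean Mfap4 at least 275-fold higher in loose fibroblast-like cells. In library 1, however, 2 of 14 stromal-like cells held 27 Mfap4 UMIs (333 CPM) and 1 of 14 held 2 Mfap5 UMIs (24.6 CPM). Of these 14 cells, 1 also passed the loose fibroblast gate.

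**Figure D3:**
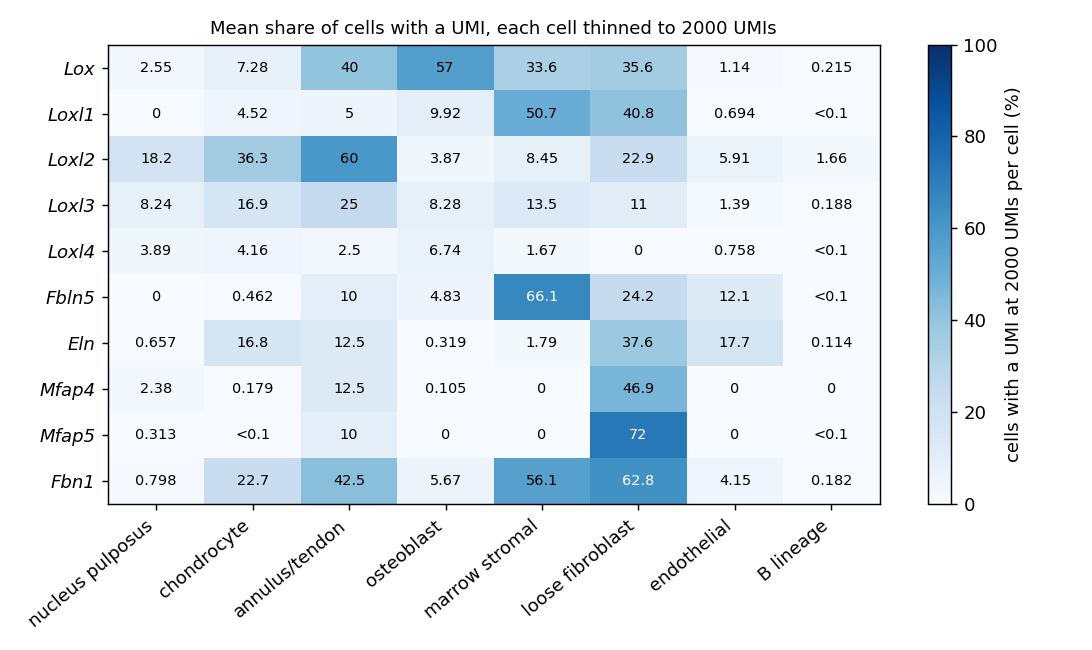
Mean over libraries of the share of cells with at least 1 UMI, in percent, after each cell was thinned to 2000 UMIs; rows are the 10 genes and columns the classes, with B lineage-like cells as background at the right. Loose fibroblast-like cells show Mfap5 in 72.0% and Fbn1 in 62.8%, stromal-like cells show Fbln5 in 66.1%, osteoblast-like cells Lox in 57.0%, and no B lineage-like share exceeds 1.66%.

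The genes lie apart in the genome. On mm10, with the GENCODE vM21 annotation, Lox is at chromosome 18, 52516067 to 52529867, Loxl1 at chromosome 9, 58287738 to 58313186, Loxl2 at chromosome 14, 69609068 to 69695834, and Loxl4 at chromosome 19, 42593982 to 42612813. Loxl3 (83034173 to 83052562) and Mfap5 (122505845 to 122529290) are both on chromosome 6, far from each other. Eln is at chromosome 5, 134702593 to 134747323, Fbln5 at chromosome 12, 101746565 to 101819055, Mfap4 at chromosome 11, 61485431 to 61488900, and Fbn1 at chromosome 2, 125300594 to 125507993. UMIs were counted per gene, so the values below do not separate exons or isoforms.

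Each class was then set against the mean of the other connective classes, and nucleus pulposus-like cells against the mean of all 5, in 1 edgeR quasi-likelihood fit across all genes with the library as a term. Each mean is taken over the classes' fitted log levels, so a class with levels near 0 pulls it down. A gene called higher in a class can thus still lie below some of the other classes. Log2 fold changes are given with their SE, and a gene with a Benjamini-Hochberg adjusted p under 0.05 over all genes tested was called. The classes of a library share its pool of animals, and the library term takes out the level of each pool. A p is thus set against the spread of class differences from pool to pool, estimated over all classes together. All 10 members passed the filter on low counts. The fitted folds of Mfap4 and Mfap5 rest on the 0 UMIs of stromal-like cells and are not printed. They had no valid statistic in the nucleus pulposus-like, chondrocyte-like and osteoblast-like comparisons, so their levels stand for them there. The limma fit on log2 CPM, which can test them, gave differences between -2.89 and -4.31 for both genes in these comparisons, with adjusted p of at most 0.00461. It called 14.9%, 5.81% and 8.49% of all genes lower in nucleus pulposus-like, chondrocyte-like and osteoblast-like cells. For Mfap4 and Mfap5 the means compared with include the high loose fibroblast-like and annulus-like levels. In nucleus pulposus-like and chondrocyte-like cells, Mfap5 was below every other connective class in 0 of 3 libraries.

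Loose fibroblast-like cells, of the interstitial type that carries Pi16 and Dpt, held the fullest elastic fibre set. Of the 10 members 6 were called higher and 2 lower, where 10.3% of all genes tested were called higher and 2.73% lower. The higher ones were Eln (log2 fold change 4.40 ± 0.27, SE, edgeR adjusted p = 8.31e-09), Fbn1 (3.32 ± 0.29, edgeR adjusted p = 4.89e-07), Fbln5 (2.50 ± 0.24, edgeR adjusted p = 1.79e-06), Loxl1 (2.21 ± 0.36, edgeR adjusted p = 0.000398), Mfap4 and Mfap5 (edgeR adjusted p = 5.80e-08 and 4.81e-11). Loxl3 fell by 1.70 ± 0.32 and Loxl4 fell by 4.43 ± 0.82 on the log2 scale (edgeR adjusted p = 0.00142 and 0.00115). The Loxl4 fold rests on that 1 UMI, which was in library 3, and is no measure of size: without library 3 it was -8.24. The Loxl4 folds of the other classes below are set against a mean that includes this level, so their size depends on it as well. Eln, Loxl1, Fbn1 and Mfap5 were above every other fitted class in 3 of 3 libraries. The members' median difference on log2 CPM was 2.32, against -0.03 for all genes. Lox and Loxl2 were not called, with 0.90 ± 0.58 and 0.61 ± 0.30.

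Annulus or tendon fibroblast-like cells, marked by genes such as Scx and Tnmd, had 5 members called higher and 0 lower, where 5.95% of all genes tested were called higher and 1.33% lower. Loxl2 was higher by 3.69 ± 0.31 (SE, edgeR adjusted p = 1.74e-06), Loxl3 by 2.13 ± 0.29 (edgeR adjusted p = 0.000144) and Eln by 2.74 ± 0.36 (edgeR adjusted p = 0.000127), and Mfap4 and Mfap5 were called as well (edgeR adjusted p = 1.92e-06 and 0.000151). The members' median log2 CPM difference was 1.57, against -0.14 for all genes. Lox, at 0.88 ± 0.68, and Fbn1, at 1.24 ± 0.39 (edgeR adjusted p = 0.0666), missed the threshold. The Eln call rests on few cells, since 1 cell held 42 of 56 Eln UMIs in library 1 and 1 cell held 40 of 53 in library 2, and it missed the threshold by limma (adjusted p = 0.0709). The Mfap5 UMIs came from 3 of 21 cells in library 1 and 2 of 20 cells in library 2. In each of these libraries 1 annulus-like cell also passed the loose fibroblast gate. Only 41 cells in 2 libraries stand behind the class, 19 of which also passed the chondrocyte gate. Without library 2 a single annulus-like sum is left, assumed to vary like the other classes, and Loxl3 was then not called (log2 fold change 1.64, edgeR adjusted p = 0.101). With the overlapping cells left out, no annulus-like sum reached 20 cells and the comparison could not be made.

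Chondrocyte-like cells had 4 members higher and 3 lower, where 12.6% of genes tested were higher and 7.11% lower. Eln was higher by 2.76 ± 0.28 (SE, edgeR adjusted p = 2.01e-06), Loxl4 by 2.18 ± 0.35 (edgeR adjusted p = 0.000183), Loxl2 by 2.08 ± 0.26 (edgeR adjusted p = 1.83e-05) and Loxl3 by 1.04 ± 0.22 (edgeR adjusted p = 0.0027). Fbln5 fell by 4.27 ± 0.34, Lox fell by 2.62 ± 0.68 and Loxl1 fell by 2.42 ± 0.44 (edgeR adjusted p = 1.76e-07, 0.0104 and 0.000664). The members' median log2 CPM difference was -1.46, against 0.06 for all genes. The Loxl3 call was lost without library 1 (log2 fold change 0.86, edgeR adjusted p = 0.0548), Loxl4 moved to 3.11 without library 3, and Fbn1 was not called at -0.60 ± 0.33.

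Osteoblast-like cells, which lay down the type I collagen of bone, had 2 members higher and 5 lower, where 11.8% of genes tested were higher and 11.1% lower. Loxl4 was higher by 2.09 ± 0.34 (SE, edgeR adjusted p = 0.000258) and Lox by 1.71 ± 0.53 (edgeR adjusted p = 0.0277). Fbn1 fell by 4.83 ± 0.45, Eln fell by 4.04 ± 0.64, Loxl2 fell by 3.97 ± 0.38, Fbln5 fell by 2.52 ± 0.30 and Loxl1 fell by 1.79 ± 0.43 (edgeR adjusted p = 1.37e-06, 0.000219, 1.63e-06, 1.45e-05 and 0.00587). The members' median log2 CPM difference was -3.08, against 0.08 for all genes. The Lox call did not hold with DESeq2 or limma (adjusted p = 0.259 and 0.285). In edgeR it was lost without library 2, with gates of 5 of 8 markers and without the barcodes of more than 1 library (log2 fold changes 1.44, 2.00 and 1.74, edgeR adjusted p = 0.174, 0.0565 and 0.0582). The Loxl1 call was lost without library 2 or library 3 (log2 fold changes -1.39 and -1.29, edgeR adjusted p = 0.175 and 0.0838), and its fold was -2.56 without library 1. Without library 3 the folds of Loxl4 and Eln were 2.92 and -4.87.

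Bone marrow stromal-like cells, the Cxcl12 and Lepr cells of the marrow, had 2 members higher and 4 lower, where 12.5% of genes tested were higher and 8.79% lower. Fbln5 was higher by 4.51 ± 0.26 (SE, edgeR adjusted p = 1.21e-08) and Loxl1 by 1.89 ± 0.42 (edgeR adjusted p = 0.00434). Eln fell by 5.86 ± 0.64 and Loxl2 fell by 2.41 ± 0.44 (edgeR adjusted p = 8.90e-06 and 0.00104), and Mfap4 and Mfap5 were called lower (edgeR adjusted p = 0.00164 and 0.00161). The members' median log2 CPM difference was -0.93, against 0.07 for all genes. Since the class has sums in libraries 2 and 3 only, leaving out either one leaves 1 sum, assumed to vary like the other classes. Without library 2, Loxl1 and Loxl2 were not called (log2 fold changes 1.69 and -1.82, edgeR adjusted p = 0.166 and 0.0831), and Fbln5 stood at 5.23. Without library 3, Mfap4 and Mfap5 were not called (edgeR adjusted p = 0.129 and 0.0644), and Loxl2 stood at -3.39. With sums of at least 10 cells, which adds the 14 stromal-like cells of library 1, Mfap4 was no longer called (log2 fold change -0.26, edgeR adjusted p = 0.913).

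Nucleus pulposus-like cells were low in most of the set. They had 2, 0 and 0 Fbln5 UMIs in libraries 1, 2 and 3. Fbn1 stood at 20.2, 3.88 and 0 CPM, below every connective class in each library, and Eln at 13, 19.4 and 0 CPM, above the osteoblast-like and stromal-like ranges in libraries 1 and 2. Against the 5 connective classes 0 members were called higher and 5 lower, where 18.8% of all genes tested were called higher and 12.5% lower. The 5 include Lox, which was picked with its values in this contrast known, so its call adds nothing to the count. Fbln5 fell by 6.03 ± 0.56, Loxl1 fell by 4.40 ± 0.64, Fbn1 fell by 3.63 ± 0.46 and Eln fell by 1.48 ± 0.43 on the log2 scale (SE, edgeR adjusted p = 7.08e-07, 7.06e-05, 1.84e-05 and 0.0147). The Fbln5 fold rests on 2 UMIs, both in library 1. Without library 1, Fbln5, Loxl1 and Fbn1 stood at -9.18, -6.25 and -5.19, still called, so their size depends on that library. Lox was the other gene called. It had been singled out from earlier results of this contrast, and its values are given as a description: 5.79, 0 and 136 CPM, of which the last rests on 13 UMIs of 1 cell that also held 478 UMIs of the osteoblast gene Ibsp and 7 of 8 osteoblast markers. For Eln, 29 of the 30 UMIs in library 2 came from 1 cell with 6 of 8 chondrocyte markers and 41 Cilp UMIs, and the call was lost without each library in turn (log2 fold changes -1.41, -1.79 and -1.25, edgeR adjusted p = 0.0907, 0.0681 and 0.0610 without libraries 1, 2 and 3). These folds were of similar size to the one from all libraries. The members' median log2 CPM difference, with Lox included, was -3.02, against -0.08 for all genes.

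The exceptions in nucleus pulposus-like cells were the scavenger receptor branch. Loxl2 was seen in 21.7%, 54.1% and 11.5% of nucleus pulposus-like cells, against 4.36%, 2.77% and 2.27% of B lineage-like cells. Thinned to 2000 UMIs the mean shares were 18.2% and 1.66%. Loxl3 was seen in 9.38%, 23.6% and 7.69%, against at most 0.709% of B lineage-like cells. Loxl4 was seen in 3.12%, 10.8% and 3.85%, against at most 0.280%, and its 4 UMIs in library 3 were in 1 cell. In library 1 the 55 of 544 cells with most UMIs held 81.9% of Loxl2 and 100% of Loxl3 UMIs. In library 2 the top 16 of 157 cells held 46.9% and 69.1%. In these libraries 49 and 16 nucleus pulposus-like cells also passed the gate of chondrocyte-like cells, which are high in both genes. Whether those cells held the Loxl2 and Loxl3 UMIs was not tested. Against the connective classes Loxl2 was not called at 0.34 ± 0.28, nor Loxl3 at -0.49 ± 0.26 or Loxl4 at 0.69 ± 0.39 (edgeR adjusted p = 0.402, 0.170 and 0.299). Without library 3, Loxl2 was called higher (log2 fold change 0.78, edgeR adjusted p = 0.0444), and without library 2 its direction turned (-0.24, edgeR adjusted p = 0.736).

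The level of Loxl2 moved with the mitochondrial content of the barcodes. Nucleus pulposus-like cells with at least 1% mitochondrial UMIs, numbering 115, 124 and 9, had 205, 176 and 61.8 CPM of Loxl2, against 50.5, 58.6 and 0 CPM in those under 1%. Median depths were 9300, 10545 and 4714 UMIs, against 2543, 3450 and 1250. Loxl3 had 113, 47.6 and 30.9 CPM in the first set, against 10.7, 7.32 and 0 CPM. The Lox, Loxl1, Fbln5, Mfap4 and Fbn1 UMIs of nucleus pulposus-like cells were all in cells with at least 1% mitochondrial UMIs, in each library. With only the cells of at least 1%, which also removes the sum of library 3 for its 9 cells, Loxl2 was called higher than the mean of the connective classes (log2 fold change 0.93, edgeR adjusted p = 0.00978), and Eln was not called (-0.92, edgeR adjusted p = 0.0926). The Loxl2 CPM of these cells still lay below that of chondrocyte-like and annulus-like cells in libraries 1 and 2. With the nucleus pulposus-like sum of library 3 alone removed, Loxl2 stood at 0.66 (edgeR adjusted p = 0.0555) and Eln at -1.34 (edgeR adjusted p = 0.0170). The part that RNA quality has in these levels was not tested.

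**Figure D4:**
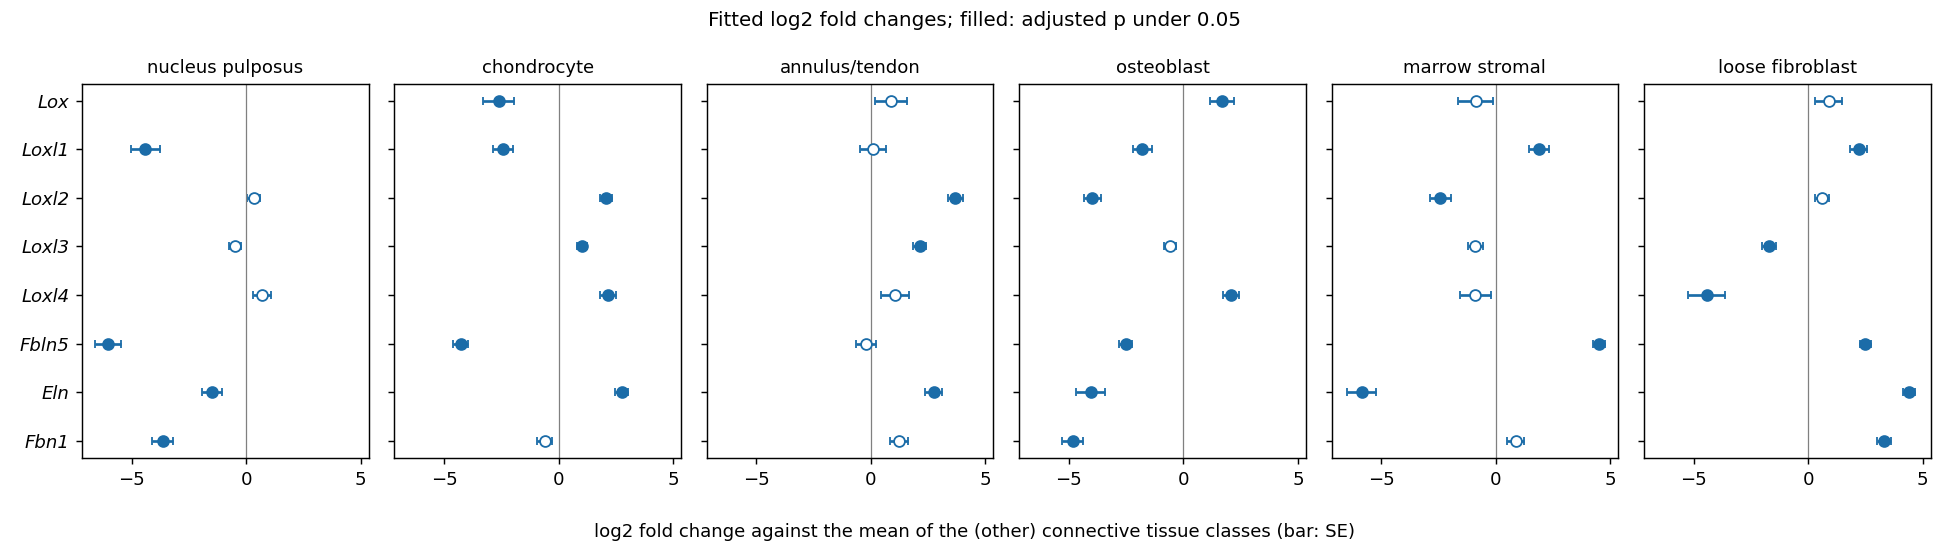
Log2 fold change with SE of 8 members in each of the 6 comparisons, nucleus pulposus-like cells against the mean of 5 connective classes at the left and each connective class against the mean of the other 4 after it; filled points have an adjusted p under 0.05. Mfap4 and Mfap5 are left out because a class with 0 UMIs sets their folds, and Lox in nucleus pulposus-like cells because it is given as a description; Eln is higher in loose fibroblast-like (4.40), chondrocyte-like (2.76) and annulus-like cells (2.74) and lower in osteoblast-like (-4.04) and stromal-like cells (-5.86).

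Within the chondrocyte-like class some members were uneven, Eln among them. The 10% of cells with most Eln held 87.1%, 85.2% and 91.3% of its UMIs in libraries 1, 2 and 3. The corresponding shares were 91.3% and 82.0% for Lox and 77.6% and 86.6% for Loxl4 in libraries 1 and 2, and 43.9%, 44.3% and 44.4% for Fbn1 and 45.2%, 42.5% and 47.5% for Loxl2 in all 3. Library 1 held 450 Lox and 370 Loxl4 UMIs in this class, but 1923 of Eln and 1233 of Fbn1. After these values were seen, the class was divided by a UMI of Matn3, a cartilage matrix gene. Matn3 is itself a marker of the chondrocyte gate, so cells without it had passed the gate on its other markers. The 578, 214 and 45 cells without one had 355, 345 and 219 CPM of Eln, and the 370, 109 and 10 cells with one had 59.5, 84.6 and 0 CPM. Fbn1 followed the same direction, at 199, 130 and 129 CPM without Matn3 and 59.9, 42.3 and 78.6 CPM with it, as did Lox at 67.9, 65.8 and 64.4 CPM and 25.5, 26.0 and 34.9 CPM. Loxl3 had 95.8, 70.1 and 64.4 CPM without Matn3 and 239, 133 and 297 CPM with it, and Loxl4 29.9, 14.5 and 19.1 CPM and 40.9, 35.5 and 87.3 CPM. Eln, Fbn1 and Lox were higher, and Loxl3 and Loxl4 lower, in the cells without Matn3 in 3 of 3 libraries, while Loxl2 had no constant direction. Cilp, the gene of cartilage intermediate layer protein and itself an annulus gate marker, was also higher without Matn3, at 4789, 1965 and 2208 CPM, against 494, 324 and 0 CPM. Median depths were 5752, 9536 and 8022 UMIs without Matn3 and 14269, 14766 and 12009 UMIs with it. The part of depth, of the gate or of annulus cells in the difference was not tested.

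**Figure D5:**
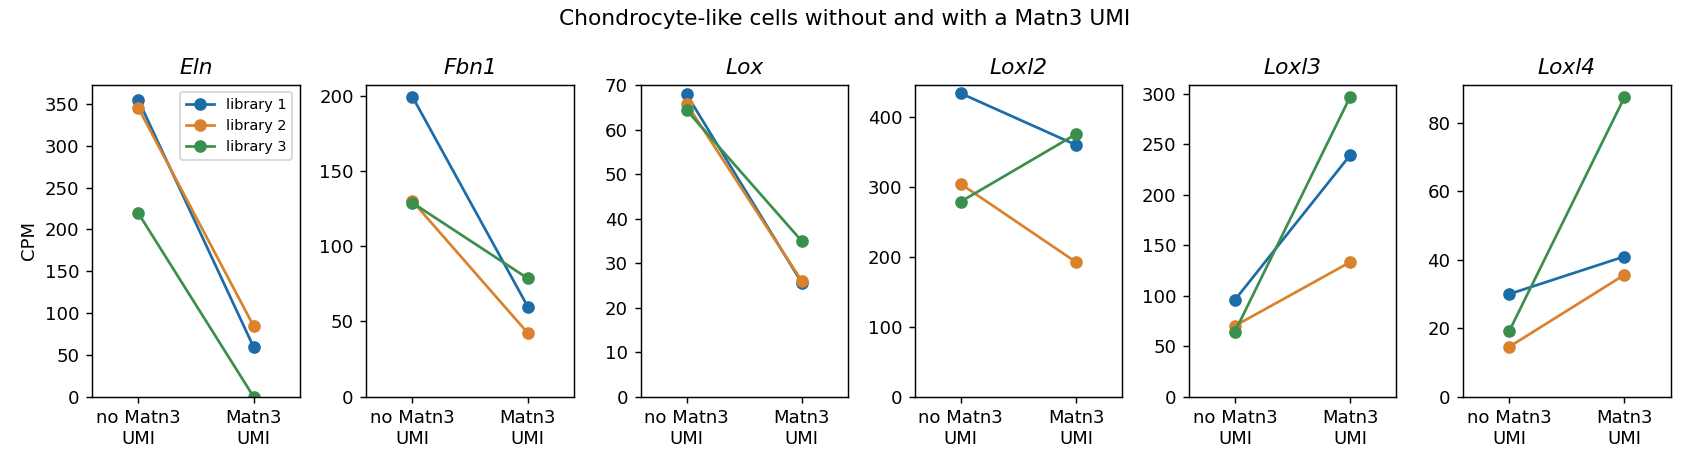
CPM of 6 members in chondrocyte-like cells without a Matn3 UMI (left) and with one (right), 1 line per library, each panel with its own axis from 0. Eln, Fbn1 and Lox are higher without Matn3 in every library, and Loxl3 and Loxl4 are higher with it.

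Other members were spread more evenly over their class. The 10% of osteoblast-like cells with most Lox held 31.2%, 27.7% and 23.3% of its UMIs, and the 10% of stromal-like cells with most Fbln5 held 29.6% and 28.5% of its UMIs. In annulus-like cells Mfap4 came from few cells in libraries 1 and 2, where the top 10% held 90.4% and 92.4% of its UMIs, against 46.7% in library 3, while Loxl2 was in 95.2% and 100% of cells. In loose fibroblast-like cells Fbn1 had a UMI in 100%, 100% and 94.6% of cells with Eln and in 89.5%, 62.5% and 88.2% of those without. Mfap5 was in 94.7%, 100% and 89.2% of cells with Eln and in 68.4%, 62.5% and 82.4% of those without, so both genes were in most cells of the class either way. Mfap4 was in 73.7%, 66.7% and 83.8% of loose fibroblast-like cells with Eln and in 42.1%, 37.5% and 47.1% of those without. Fbln5, whose protein interacts with that of Loxl1, was in 20 of the 24 stromal-like cells with Loxl1 in library 2 (83.3%, against 16.7% of the 6 without) and in 49 of 55 in library 3 (89.1%, against 80.0% of the 5 without), so library 3 gave little difference. Cells of 1 library differ in depth, which these joint counts share.

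Across the 16 sums of library and class, the members fell into different company, as a description over sums that share libraries and classes. Loxl1 went most closely with Fbln5 (Pearson r of log2 CPM 0.92) and Fbn1 (0.88), Mfap4 with Mfap5 (0.91), and Eln with Loxl2 (0.78), whereas Loxl4 ran against Mfap5 (-0.86). Among 5832 genes of at least 20 CPM on average, the closest to Lox were Gpr153 (0.95), Mmp23 (0.95) and the gelatinase gene Mmp2 (0.93), and the closest to Loxl2 were Prelp (0.96), Col6a1 (0.95) and Col6a3 (0.95). Fbln5 was closest to Igfbp4 (0.98), Mdk (0.97) and Igf1 (0.96), and Fbn1 to Ogn (0.98), Gpm6b (0.98) and Dab2 (0.96). Eln was closest to Medag (0.96), Ly6c1 (0.95) and Myoc (0.95), and Mfap4 and Mfap5 both had Thy1 first (0.95 and 0.93). Loxl1 was closest to Fstl1 (0.97), Loxl3 to Hif1a (0.90) and Loxl4 to Itga10 (0.88).

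Counts on the lists that follow are to be read beside the shares of all genes called higher and lower in the same comparisons. These were 10.3% and 2.73% in loose fibroblast-like, 5.95% and 1.33% in annulus-like, 12.6% and 7.11% in chondrocyte-like, 11.8% and 11.1% in osteoblast-like, 12.5% and 8.79% in stromal-like, and 18.8% and 12.5% in nucleus pulposus-like cells.

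Of 17 other microfibril and elastic fibre genes 16 were tested, and in loose fibroblast-like cells 9 were called higher and 1 lower. Fbln2, a fibulin of elastic matrix, averaged 560 ± 173 CPM there (SD, n = 3) and was at most 58.6 CPM on average in the other classes. Ltbp4, which binds fibulin 5 and latent TGF-beta, averaged 453 ± 59.3 CPM in loose fibroblast-like cells (SD, n = 3) and 121 ± 23.9 CPM in annulus-like cells (SD, n = 2), and was called higher in both (log2 fold change 5.54 ± 0.21 and 3.64 ± 0.31, SE, edgeR adjusted p = 3.47e-11 and 1.59e-06). Stromal-like cells had 3 called higher and 2 lower. The higher ones included Ltbp2 (4.81 ± 0.59, SE, edgeR adjusted p = 2.91e-05) and Thsd4, which promotes fibrillin assembly (3.92 ± 0.41, edgeR adjusted p = 5.53e-06). In chondrocyte-like cells 2 were higher, Adamtsl2 and Efemp1, and 4 lower. Annulus-like cells had 4 higher and 1 lower, osteoblast-like cells 3 and 6 of 14 with a valid statistic, and nucleus pulposus-like cells 1 and 9. Mfap2, another microfibril gene, was among the 9 (log2 fold change -4.24 ± 0.50, SE, edgeR adjusted p = 8.27e-06).

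Of 14 genes that mature lysyl oxidases or modify collagen lysines 12 were tested. Bmp1, a protease that cleaves procollagen and the Lox proenzyme, averaged 728 ± 217 CPM in osteoblast-like cells (SD, n = 3) and was called higher there (log2 fold change 2.29 ± 0.35, SE, edgeR adjusted p = 0.000164), beside Pcolce, Serpinh1 and Fkbp10, with 4 higher and 2 lower in all. Pcolce2, an enhancer of procollagen cleavage, averaged 1006 ± 176 CPM in annulus-like cells (SD, n = 2) and 796 ± 115 CPM in chondrocyte-like cells (SD, n = 3). These classes also had the highest mean Loxl2. Pcolce2 had 0 UMIs in the fitted stromal-like sums. Plod2, a lysyl hydroxylase, averaged 876 ± 56.6 CPM in annulus-like cells (SD, n = 2) and 1003 ± 285 CPM in chondrocyte-like cells (SD, n = 3), and its call in annulus-like cells was 1.76 ± 0.31 (SE, edgeR adjusted p = 0.00146). In annulus-like cells 5 were higher and 0 lower, in chondrocyte-like cells 5 and 3, in loose fibroblast-like cells 4 and 2, in stromal-like cells 0 and 8, and in nucleus pulposus-like cells 2 and 6. Postn, the periostin gene whose product binds Bmp1, led the loose fibroblast-like calls at 4.34 ± 0.36 (SE, edgeR adjusted p = 2.61e-07).

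The fibrillar collagens on which the enzymes act on a list of 7 were all called higher in annulus-like cells and all lower in stromal-like cells. In chondrocyte-like cells 2 were higher and 1 lower, in osteoblast-like cells 4 and 2, in loose fibroblast-like cells 2 and 2, and in nucleus pulposus-like cells 1 and 5. Col1a1 averaged 78942 ± 11280 CPM in annulus-like cells (SD, n = 2), 78458 ± 41105 CPM in osteoblast-like cells (SD, n = 3) and 4738 ± 2133 CPM in stromal-like cells (SD, n = 2). Col3a1, the collagen of loose connective tissue, averaged 17610 ± 526 CPM in loose fibroblast-like cells (SD, n = 3) and was called higher there (log2 fold change 5.45 ± 0.69, SE, edgeR adjusted p = 3.02e-05). Col2a1, the cartilage collagen, averaged 34905 ± 6653 CPM in chondrocyte-like cells (SD, n = 3), with a log2 fold change of 8.64 ± 0.46 (SE, edgeR adjusted p = 6.83e-09).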

How the data were processed

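The authors deposited whole-number counts of UMIs per gene and barcode for each library, from the v3 chemistry of 10x Genomics' 3' single-cell kit. The submitters' processing notes list Cell Ranger 3.0.2, Seurat 4 and mm10 without roles, and per the file headers the matrix of library 1 was written by version 3.0.1 and those of libraries 2 and 3 by 6.0.0. Per the labels, each library is its own pool and sequencing batch, so pool and batch cannot be told apart, and classes are compared with the library as a term.

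A barcode was kept if it had 500 genes or more and no more than 15% mitochondrial UMIs, the 30406 genes listed in all libraries were used, and cells were gated by markers with at least 1 UMI. Cells with at least 3 of 6 leukocyte genes were left out, except B lineage-like cells, which needed 4 of 6 markers. The nucleus pulposus gate came before the others, a cell passing several other gates went to the one with the highest share of markers, and ties were left out. The members, gates, lists and tests were chosen with earlier results of these data known. Doublets were not removed in the main analysis. Scrublet in scanpy 1.11.5 called 1.62%, 5.01% and 3.43% of kept barcodes, and their removal was an alternative. Counts were summed per library and class with at least 20 cells, giving 16 sums, and fitted in R 4.3.3 with edgeR 4.0.16 (filterByExpr, TMM, quasi-likelihood test, class and library as terms). The library term is the replicate block, since all sums of a library come from 1 pool. The SE is the absolute log2 fold change over the square root of F. Statistics with F under 0.001 and a log2 fold change beyond 1 either way, which arise where a class has 0 UMIs, were set aside as not valid, which left 8618 to 8695 genes tested. A limma 3.58.1 fit to log2 CPM (edgeR, prior count of 2 UMIs), added after the data were seen, gave the medians of log2 CPM differences and is an alternative test, as is DESeq2 1.42.0. On simulated counts with known changes, 50 of 50 genes at 4-fold were recovered in each of the nucleus pulposus-like, osteoblast-like and loose fibroblast-like comparisons, and at 2-fold 31, 33 and 21 of 50. The simulated classes were otherwise alike, with a common spread, and only rises were set, in genes outside the least abundant. Recovery of falls or of genes near 0 UMIs was not tested. Floors of 3 UMIs cover counting error only. Of each list at most 4 genes per comparison are named, those with the largest absolute log2 fold change among the called. Genes alike in pattern are the 3 highest Pearson correlations, gate markers left out, of which part are printed. Gene symbols are those of library 3, matched by gene ID, and promoter sequences are RefSeq's.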

Additional observations from a re-analysis of the deposited data

How the results depend on the processing

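The number of members called stayed within 1.5 times the main number in each of the 123 recomputations, over filters, gates, normalizations, tests and libraries. Without 1 library at a time the counts were 4 to 5 in nucleus pulposus-like, 6 to 7 in chondrocyte-like, 4 to 6 in annulus-like, 5 to 7 in osteoblast-like, 4 to 6 in stromal-like and 8 to 8 in loose fibroblast-like cells. Without the replicate block they were 5, 7, 5, 7, 6 and 8 in the same order, as with it. DESeq2 called 7, 9, 5, 9, 6 and 8. Of the members' fold changes, 29 recomputed values lost their call and 27 gained one. Loxl2 in nucleus pulposus-like cells was called higher under 6 alternatives, each of which lacked the annulus-like sums, where Loxl2 is highest, or the nucleus pulposus-like sum of library 3, where it is lowest, and Eln there lost its call under 9. None of the called folds changed direction in any recomputation. The 15 values that changed direction were uncalled both ways: Loxl2 in nucleus pulposus-like cells without replicate 2 (-0.24, the range without 1 replicate being -0.24 to 0.78) and by limma (-0.069), Loxl3 there with at least 1% mitochondrial UMIs (0.12), Loxl1 in annulus-like cells without the replicate block (-0.26), without replicate 2 (-0.28, range -0.28 to 0.45), without shared barcodes (-0.35) and by limma (-0.15), and Fbln5 in annulus-like cells without replicate 1 (0.36, range -1.35 to 0.36), at 5% mitochondrial UMIs (0.89), with gates of 3 of 8 (0.39) and sums of 10 cells (0.37). Likewise Loxl3 in osteoblast-like cells had 0.049 with gates of 5 of 8 and 0.15 with sums of 50 cells, Loxl4 in stromal-like cells 0.31 without replicate 3 (range -1.12 to 0.31), and Lox in loose fibroblast-like cells -0.24 with sums of 50 cells. The cause of these changes was not tested. Of the recomputed mean levels 772 stayed within 1 SD and 48 moved by more, and thinning to 2000 UMIs moved 41 of the shares by more than 1 SD. Beside the losses given above, by limma Lox and Loxl3 in chondrocyte-like, Loxl1 in osteoblast-like and Loxl1 in stromal-like cells missed the threshold (adjusted p = 0.0804, 0.0539, 0.0517 and 0.0575). The annulus-like comparison could not be fitted with gates of 5 of 8 or sums of at least 50 cells. Gates, sums under 60 cells and the low depth of nucleus pulposus-like cells limit what small differences could show.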

Other observations

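Endothelial-like cells, which entered no comparison, had 133, 82.3 and 61.8 CPM of Fbln5 and 223, 62.3 and 65.6 CPM of Eln in libraries 1, 2 and 3, with 156, 50 and 45 cells. Fbln5 was seen in 23.1%, 24.0% and 11.1% of them and Eln in 48.1%, 22.0% and 26.7%, against at most 0.168% and 0.520% of B lineage-like cells. Mfap4 and Mfap5 had 0 UMIs in all 251 endothelial-like cells, and Loxl2 averaged 35.6 ± 12.4 CPM (SD, n = 3), against a B lineage-like mean of 10.7 CPM. Mural-like cells, the smooth muscle and pericyte class, numbered 5. The 1 such cell of library 2 held 138 Eln UMIs (8896 CPM) and the 4 of library 3 held 114 (2974 CPM), more than in any other class.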
